A study of Mus musculus with 6 samples.

Results

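The respiratory chain of the inner mitochondrial membrane is built from complexes I to IV, and 39 nuclear genes that code for their subunits were listed by name: 22 of complex I, 4 of complex II, 6 of complex III and 7 of complex IV. Each gene was followed through the probe sets annotated to it alone, and where a gene had several, the one with the highest mean over the 6 arrays was taken. Of the 39 genes 38 were measured, among 18193 genes with a probe set of their own, and Cox7b had none. Spleen RNA had been taken from female nonobese diabetic (NOD) mice, in which autoimmune diabetes arises spontaneously, and hybridized to Affymetrix mouse genome arrays. The untreated non-diabetic group was mice that stayed free of diabetes without any drug, the untreated diabetic group was mice that had become diabetic, and the TSA-treated group was mice that received trichostatin A (TSA), which blocks histone deacetylases, as a weekly 500 µg/kg injection under the skin from 18 to 24 wk of age and were free of diabetes afterwards. The labels give 32 to 36 wk of age for every group, whereas the methods describe younger diabetic than cured mice. No vehicle-injected group was analysed here, so drug and injection cannot be told apart. Each group was 1 pool of RNA from 3 to 5 mice, a number the methods give differently, and each pool was labeled and hybridized in duplicate. The 2 arrays of a group are therefore technical duplicates, and every standard error and p-value below covers the spread between labelings and not the spread between mice.

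In the chain, complex I takes electrons from NADH and complex II from succinate, ubiquinol carries them to complex III, cytochrome c carries them on to complex IV, and there they reduce oxygen to water. Complexes I, III and IV pump protons across the membrane, and the ATP synthase uses the gradient to make ATP. Complexes I, III and IV also hold subunits coded by the mitochondrial genome, so their supply depends on the nuclear and on the mitochondrial genes. Resting lymphocytes of the spleen rely largely on this route for ATP, and lymphocytes that divide make more mitochondria.

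Nuclear genes of the chain are known to carry binding sites for NRF1, ETS factors and YY1 near their starts, and RefSeq promoters (mouse build GRCm38.p6, 250 bases before to 50 after the most upstream start of a gene) were found for 29 of the 38 genes. On either strand, the NRF1 letters GCGCATGC stood in 5 of the 29 promoters (17.2%, against 2.8% of all 27025), in Cox6a1, Ndufa6, Ndufa8, Sdhb and Uqcrc1. The ETS letters ACTTCCGG stood in Cox8a, Ndufs3 and Uqcrh (10.3%, against 3.99%), and the YY1 letters AAGATGGC stood in Ndufa9, Ndufb8, Ndufs4 and Ndufs7 (13.8%, against 2.87%). TATAAA stood in Ndufb7 and Ndufs7 (6.9%, against 14.2%), and the median GC content was 60.0% against 52.7% of all promoters. The 200 bases before the start are shown for Cox6a1 (chr5:115348959-115349158, minus strand), Sdhb (chr4:140961071-140961270, plus strand) and Uqcrh (chr4:116075071-116075270, minus strand), as examples from complexes IV, II and III of what such a promoter looks like. Capitals mark the NRF1 letters or their complement in Cox6a1, where both strands match and overlap, and in Sdhb, and the ETS letters in Uqcrh. A match of letters is a description and not a measured binding site.
Cox6a1: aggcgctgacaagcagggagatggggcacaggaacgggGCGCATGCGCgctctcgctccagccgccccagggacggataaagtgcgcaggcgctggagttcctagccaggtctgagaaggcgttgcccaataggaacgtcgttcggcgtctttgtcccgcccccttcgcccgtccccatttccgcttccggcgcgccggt
Sdhb: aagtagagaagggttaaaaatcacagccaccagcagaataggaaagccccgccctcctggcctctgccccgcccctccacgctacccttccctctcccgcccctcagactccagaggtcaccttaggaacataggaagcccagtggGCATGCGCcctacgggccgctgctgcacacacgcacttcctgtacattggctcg
Uqcrh: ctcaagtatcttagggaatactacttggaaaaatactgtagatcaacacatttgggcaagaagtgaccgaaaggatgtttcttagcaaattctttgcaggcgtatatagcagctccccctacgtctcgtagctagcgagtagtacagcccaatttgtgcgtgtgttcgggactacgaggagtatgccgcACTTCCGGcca

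Before the subunits, the arrays themselves are described, because they did not fall cleanly by group. For beta-actin, the 3′ control probe set exceeded the 5′ one by 2.05 to 2.42 on the log2 scale on the non-diabetic arrays and the first diabetic array, by 3.32 and 3.45 on the second diabetic and the first TSA-treated array, and by 5.61 on the second TSA-treated array. For Gapdh this difference was 2.67 and 1.91 on the non-diabetic, 1.82 and 3.19 on the diabetic and 3.85 and 4.58 on the TSA-treated arrays. T-cell markers (7 genes measured of 8) and B-cell markers (6 of 7) were present on every array, with median log2 levels of 6.77 to 7.31 and 7.71 to 10.28, and both medians were lowest on the second TSA-treated array. Markers of pancreatic acinar cells (7 of 9 measured) summed to 199.97 and 207.96 linear units in the non-diabetic arrays, 20412 and 20675 in the diabetic and 3569 and 3736 in the TSA-treated arrays, and all 7 were called higher than in non-diabetic mice in both other groups. Markers of dividing cells (9 of 10 measured) summed to 6009 and 6232 in the non-diabetic, 8680 and 11287 in the diabetic and 13296 and 10416 in the TSA-treated arrays, and limma called none of the 9 in any comparison, with 2 of the 9 higher in diabetic (4.33% of all genes) and 5 of the 9 higher in TSA-treated than in non-diabetic mice (8.8% of all genes) at an unadjusted p under 0.05. In pooled tissue RNA, a smaller number of cells of a type and less RNA per cell cannot be told apart. The part of RNA quality and of these cell types in the results below was not tested.

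None of the 38 subunit genes was called in any comparison of the groups. Called means a Benjamini-Hochberg adjusted p under 0.05 over all 45037 probe sets in a limma fit of the 6 arrays, and by this rule 0.126% of the genes were called in untreated diabetic against untreated non-diabetic mice, 0.115% between TSA-treated and untreated non-diabetic mice and 0.055% between untreated diabetic and TSA-treated mice. The lowest limma adjusted p of a subunit gene was 0.735, 0.165 and 0.902 in those comparisons, and the limma F test over the 3 groups called 0 of 38 as well, with a lowest adjusted p of 0.369. At an unadjusted limma p under 0.05, 3 of the 38 genes stood out between diabetic and non-diabetic mice (6.74% of all genes did), 5 between TSA-treated and non-diabetic mice (16% of all genes) and 2 between diabetic and TSA-treated mice (5.49% of all genes). The t-test that the methods name gave 4, 5 and 2 genes unadjusted and 0 after Benjamini-Hochberg adjustment.

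The sizes of the differences were small. The median subunit gene stood 0.11 higher on the log2 scale in diabetic than in non-diabetic mice (0.04 over all genes), a median that was −0.00 when the deposited values were quantile normalized again. It stood 0.28 higher in TSA-treated than in non-diabetic mice (0.07 over all genes) and −0.07 in diabetic minus TSA-treated mice (−0.02 over all genes). Diabetic mice had the higher mean in 26 of the 38 genes (68.4%, against 57.2% of all genes), a count that fell to 18 of 38 after that normalization. TSA-treated mice had the higher mean in 28 of 38 (73.7%, against 59.8%), also after that normalization. Both comparisons use the same 2 non-diabetic arrays, so their signs are not independent. The subunit genes were brighter than most genes, with median log2 levels of 9.32 to 9.61 on the arrays against 4.99 to 5.15 over all genes. Among the 22518 probe sets above the median level, 54.1% were higher in diabetic and 49.8% in TSA-treated than in non-diabetic mice. The arrays of the compared groups did not overlap in 17 genes with diabetic higher (25.5% of all genes) and 5 with diabetic lower (17.5%), in 19 genes with TSA-treated higher than non-diabetic (29.9%) and 3 lower (19.6%), and in 1 gene with diabetic higher than TSA-treated (12.4%) and 11 lower (16.2%). With 2 arrays against 2, an exact two-sided permutation test cannot go below p = 0.333.

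**Figure D1:**
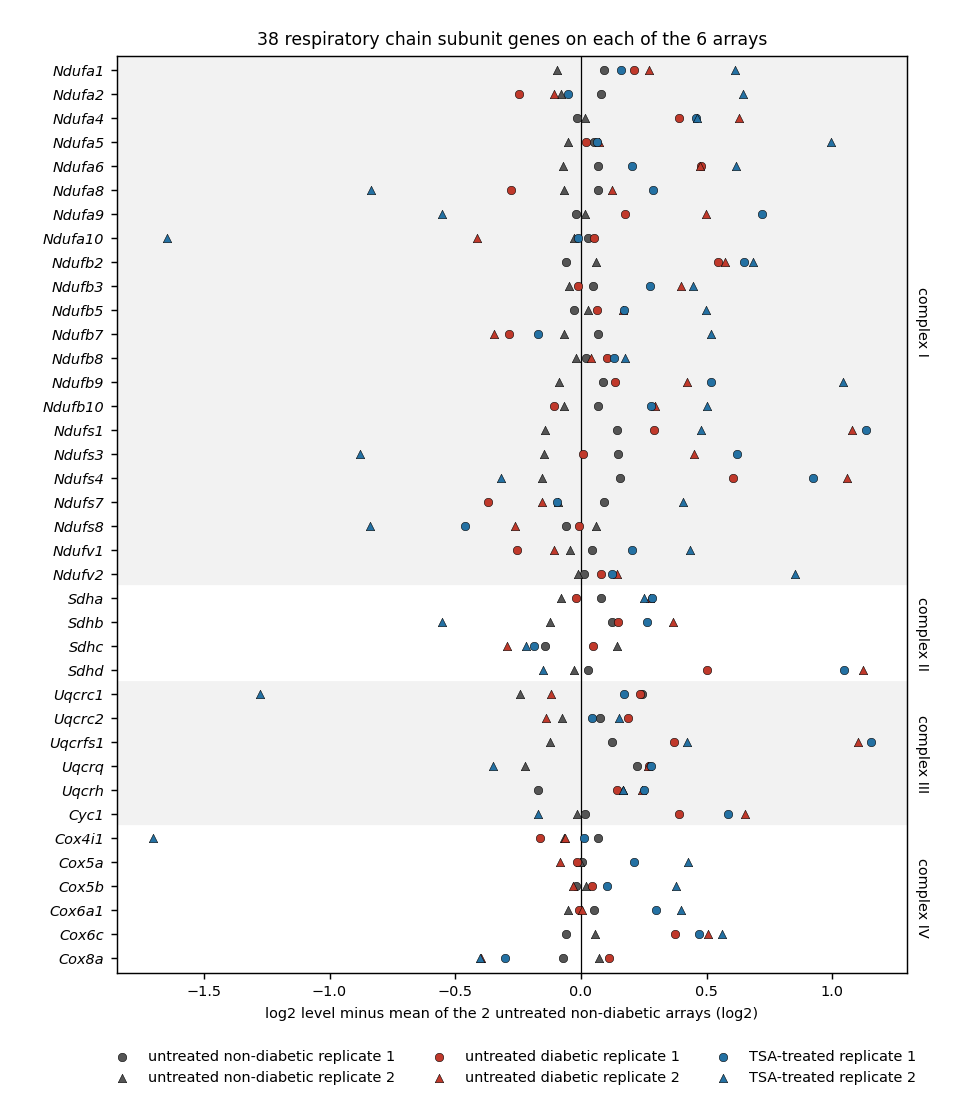
Log2 level of each of the 38 measured subunit genes (rows, by complex) on each array, less the mean of the 2 untreated non-diabetic arrays (horizontal axis, log2). Grey, red and blue points are the non-diabetic, diabetic and TSA-treated arrays, circles replicate 1 and triangles replicate 2. The second TSA-treated array (blue triangles) was the highest of the 6 for 18 genes and the lowest for 13, and the second diabetic and first TSA-treated arrays lie close together.

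Complex I made up 22 of the 38 genes. At an unadjusted limma p under 0.05, 2 of the 22 were higher in diabetic than in non-diabetic mice (4.33% of all genes). In TSA-treated against non-diabetic mice 3 were higher and 1 lower (8.8% and 7.19% of all genes). In diabetic minus TSA-treated mice 1 was higher and 1 lower (2.81% and 2.68%). The median gene of the complex stood 0.11 higher in diabetic (−0.00 after quantile normalization again, with 10 of 22 genes higher in place of 15) and 0.33 higher in TSA-treated than in non-diabetic mice, and −0.13 in diabetic minus TSA-treated mice. In 9 of the 22 genes all 4 diabetic and TSA-treated arrays lay above both non-diabetic arrays, namely Ndufa1, Ndufa4, Ndufa6, Ndufb2, Ndufb5, Ndufb8, Ndufb9, Ndufs1 and Ndufv2. Over the 38 subunit genes this held in 11 (28.9%, against 15.5% of all genes), with Uqcrfs1 and Cox6c added, and the reverse in 0 (against 10.1% of all genes). The share with these arrays above was 100% in markers of pancreatic acinar cells, 77.8% in those of dividing cells and 57.1% in erythroid markers. It was 37.5% in macrophage and monocyte markers, 28.6% in neutrophil markers and 0 in T-cell, B-cell, adipocyte and muscle markers. In lists described below it was 47.1% for the ATP synthase, 45% for the other chain subunits and 22.5% for assembly factors. It was 16.7% for tricarboxylic acid cycle enzymes and 16.7% for regulators of mitochondrial biogenesis. Of the 9 complex I genes, Ndufb2 and Ndufa4 had the lowest adjusted p-values of the complex between diabetic and non-diabetic mice. Ndufb2, a small membrane-arm subunit, had log2 levels of 7.86 and 7.99 on the non-diabetic, 8.47 and 8.50 on the diabetic and 8.57 and 8.61 on the TSA-treated arrays. Its difference from non-diabetic mice was 0.56 ± 0.15 (SE) in diabetic mice (limma adjusted p = 0.735) and 0.67 ± 0.15 in TSA-treated mice (limma adjusted p = 0.165), the lowest adjusted p of any subunit gene. Ndufa4, first described in complex I and since assigned to complex IV, had levels of 9.97 and 10.00 on the non-diabetic, 10.38 and 10.61 on the diabetic and 10.44 and 10.45 on the TSA-treated arrays. It differed by 0.51 ± 0.16 (limma adjusted p = 0.765) in diabetic and 0.46 ± 0.16 (limma adjusted p = 0.285) in TSA-treated mice. Both genes kept these positive differences after quantile normalization again, at 0.48 and 0.69 for Ndufb2 and 0.36 and 0.40 for Ndufa4.

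The core subunits of complex I, which carry the flavin and the iron-sulfur clusters, went different ways. Ndufs1, the large iron-sulfur subunit, measured 8.33 and 8.04 on the non-diabetic, 8.48 and 9.26 on the diabetic and 9.32 and 8.66 on the TSA-treated arrays. All 4 of the latter lay above the non-diabetic arrays, yet the diabetic duplicates lay 0.79 apart, and the differences of 0.68 ± 0.34 and 0.81 ± 0.34 had limma adjusted p-values of 0.834 and 0.357. Ndufv1, which binds NADH and the flavin, measured 9.54 and 9.45, 9.24 and 9.39, and 9.70 and 9.93 in the same order. The diabetic arrays were the lowest and the TSA-treated the highest without overlap, with −0.50 ± 0.17 in diabetic minus TSA-treated mice (limma adjusted p = 0.902), though its other probe sets gave −0.23 and 0.38. Ndufs7, which carries the last iron-sulfur cluster before ubiquinone, measured 9.71 and 9.52 on the non-diabetic, 9.24 and 9.46 on the diabetic and 9.52 and 10.02 on the TSA-treated arrays. Its TSA-treated arrays overlapped the non-diabetic ones, and its difference between diabetic and TSA-treated mice was −0.42 ± 0.22 (limma adjusted p = 0.902), against 0.71 by its other probe set. Ndufs8, another iron-sulfur subunit, was the only one of the 38 with a lower level in TSA-treated than in non-diabetic mice at an unadjusted p under 0.05. It measured 11.23 and 11.35 on the non-diabetic, 11.28 and 11.03 on the diabetic and 10.83 and 10.45 on the TSA-treated arrays, a difference of −0.65 ± 0.20 from non-diabetic mice (limma adjusted p = 0.237). Against diabetic mice the same TSA-treated arrays were lower by 0.52 ± 0.20, diabetic minus TSA-treated (limma adjusted p = 0.902).

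Among the other complex I genes, the highest and lowest differences came with duplicates far apart in some genes and close together in others. Ndufs4, an accessory subunit needed for a stable complex, had the highest difference between diabetic and non-diabetic mice, 0.83 ± 0.42 (limma adjusted p = 0.838), from levels of 6.51 and 6.20 on the non-diabetic and 6.96 and 7.41 on the diabetic arrays. Its TSA-treated arrays read 7.28 and 6.04, the second below all other arrays and the first near the highest. Ndufa10 had the lowest difference between TSA-treated and non-diabetic mice, −0.83 ± 0.52 (limma adjusted p = 0.530), and the highest in diabetic minus TSA-treated mice, 0.65 ± 0.52. Its level was 8.83 and 8.77 on the non-diabetic, 8.86 and 8.39 on the diabetic and 8.79 and 7.15 on the TSA-treated arrays, so that only the second TSA-treated array lay far from the rest. Ndufb7 had the lowest difference between diabetic and non-diabetic mice, −0.31 ± 0.25 (limma adjusted p = 0.953), with 10.91 and 10.78 against 10.56 and 10.50, and its TSA-treated arrays read 10.67 and 11.36. Ndufb9 measured 10.48 and 10.30 on the non-diabetic, 10.53 and 10.81 on the diabetic and 10.91 and 11.43 on the TSA-treated arrays. All groups of Ndufb9 lay apart in that order, with 0.78 ± 0.23 in TSA-treated over non-diabetic mice (limma adjusted p = 0.228) and −0.50 ± 0.23 in diabetic minus TSA-treated mice (limma adjusted p = 0.902).

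Complex II, the succinate dehydrogenase that also serves the tricarboxylic acid cycle, is the complex whose subunits are all nuclear. Its 4 genes had a median difference of 0.19 in diabetic and 0.06 in TSA-treated against non-diabetic mice, and 0.22 in diabetic minus TSA-treated mice. After quantile normalization again these medians were 0.07, 0.05 and 0.09, and the diabetic mean exceeded the TSA-treated one in 2 of the 4 genes in place of 3. Sdha, the flavoprotein that oxidizes succinate, measured 9.82 and 9.66 on the non-diabetic, 9.72 and 10.02 on the diabetic and 10.03 and 10.00 on the TSA-treated arrays, and 0.27 ± 0.18 was the difference of TSA-treated from non-diabetic mice (limma adjusted p = 0.556). Sdhb, the iron-sulfur subunit, measured 9.48 and 9.24, 9.51 and 9.73, and 9.62 and 8.81 in the same order. The last of these, the second TSA-treated array, was its lowest, and diabetic minus TSA-treated mice came to 0.40 ± 0.29 (limma adjusted p = 0.902). Sdhd, a membrane anchor, had the highest difference of the complex between diabetic and non-diabetic mice, 0.81 ± 0.42 (limma adjusted p = 0.840), from 8.22 and 8.17 on the non-diabetic and 8.70 and 9.32 on the diabetic arrays, and its TSA-treated arrays, 9.24 and 8.05, lay on either side of the non-diabetic ones. Sdhc, the other anchor, had the lowest, −0.12 ± 0.20 in diabetic and −0.20 ± 0.20 in TSA-treated mice, with 7.12 and 7.40 on the non-diabetic, 7.31 and 6.96 on the diabetic and 7.07 and 7.04 on the TSA-treated arrays.

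In complex III, which passes electrons from ubiquinol to cytochrome c, all 6 genes had a higher mean in diabetic than in non-diabetic mice, with a median difference of 0.23, and none was called; after quantile normalization again the median was 0.11 and 4 of the 6 were higher. The median was 0.15 in TSA-treated against non-diabetic mice and 0.14 in diabetic minus TSA-treated mice, and 0.10 and 0.04 after that normalization. Uqcrfs1, the Rieske iron-sulfur protein, measured 8.86 and 8.61 on the non-diabetic, 9.10 and 9.83 on the diabetic and 9.89 and 9.15 on the TSA-treated arrays. Every diabetic and TSA-treated array was above both non-diabetic arrays, and the differences were 0.74 ± 0.34 (limma adjusted p = 0.813) and 0.79 ± 0.34 (limma adjusted p = 0.368). Cyc1, the cytochrome c1 of the complex, measured 9.09 and 9.06, 9.46 and 9.73, and 9.66 and 8.90, so that its 2 TSA-treated arrays stood on opposite sides of the non-diabetic pair. Its difference between diabetic and non-diabetic mice was 0.52 ± 0.28 (limma adjusted p = 0.846). The 2 core proteins differed least between diabetic and non-diabetic mice, by 0.02 ± 0.18 for Uqcrc2 and 0.06 ± 0.48 for Uqcrc1, and were at −0.11 and −0.03 after quantile normalization again. Uqcrc1 measured 8.08 and 7.60 on the non-diabetic, 8.07 and 7.72 on the diabetic and 8.01 and 6.56 on the TSA-treated arrays, and the last of these gave the complex its lowest difference from non-diabetic mice, −0.55 ± 0.48 (limma adjusted p = 0.657). Uqcrc2 stayed between 9.41 and 9.73 on all 6 arrays.

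Complex IV, the cytochrome c oxidase, hands the electrons to oxygen. Its 6 measured genes had median differences of −0.03 in diabetic (0.03 with the arrays centred on their medians, and −0.15 with 1 of 6 genes higher after quantile normalization again) and 0.28 in TSA-treated against non-diabetic mice, and −0.16 in diabetic minus TSA-treated mice. Cox6c, a small nuclear subunit, measured 10.88 and 10.99 on the non-diabetic, 11.31 and 11.44 on the diabetic and 11.41 and 11.49 on the TSA-treated arrays. As with Ndufb2 and Ndufa4, all 4 arrays of the other groups were above the non-diabetic pair, by 0.44 ± 0.16 in diabetic (limma adjusted p = 0.787) and 0.52 ± 0.16 in TSA-treated mice (limma adjusted p = 0.235). Cox5a, which stood at 11.46 and 11.45 on the non-diabetic and 11.44 and 11.37 on the diabetic arrays, stood at 11.67 and 11.88 on the TSA-treated ones. The difference of diabetic minus TSA-treated mice, −0.37 ± 0.16, was the lowest of the complex (limma adjusted p = 0.902). Over the probe sets of Cox5a this difference ran from −0.37 to 0.10. Cox6a1 was by its brightest probe set likewise highest on the TSA-treated arrays, with 12.48 and 12.37, 12.42 and 12.43, and 12.72 and 12.82. Its other probe set gave 0.02 in TSA-treated against non-diabetic mice and 0.04 in diabetic minus TSA-treated mice. Cox4i1, the ubiquitous form of subunit 4, measured 11.08 and 10.94 on the non-diabetic, 10.85 and 10.94 on the diabetic and 11.02 and 9.31 on the TSA-treated arrays. Its difference of −0.84 ± 0.52 from non-diabetic mice (limma adjusted p = 0.528) thus came from the second TSA-treated array alone. Cox8a had the lowest difference between diabetic and non-diabetic mice, −0.14 ± 0.22, with 8.61 and 8.76 against 8.79 and 8.29, and its TSA-treated arrays read 8.38 and 8.28.

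**Figure D2:**
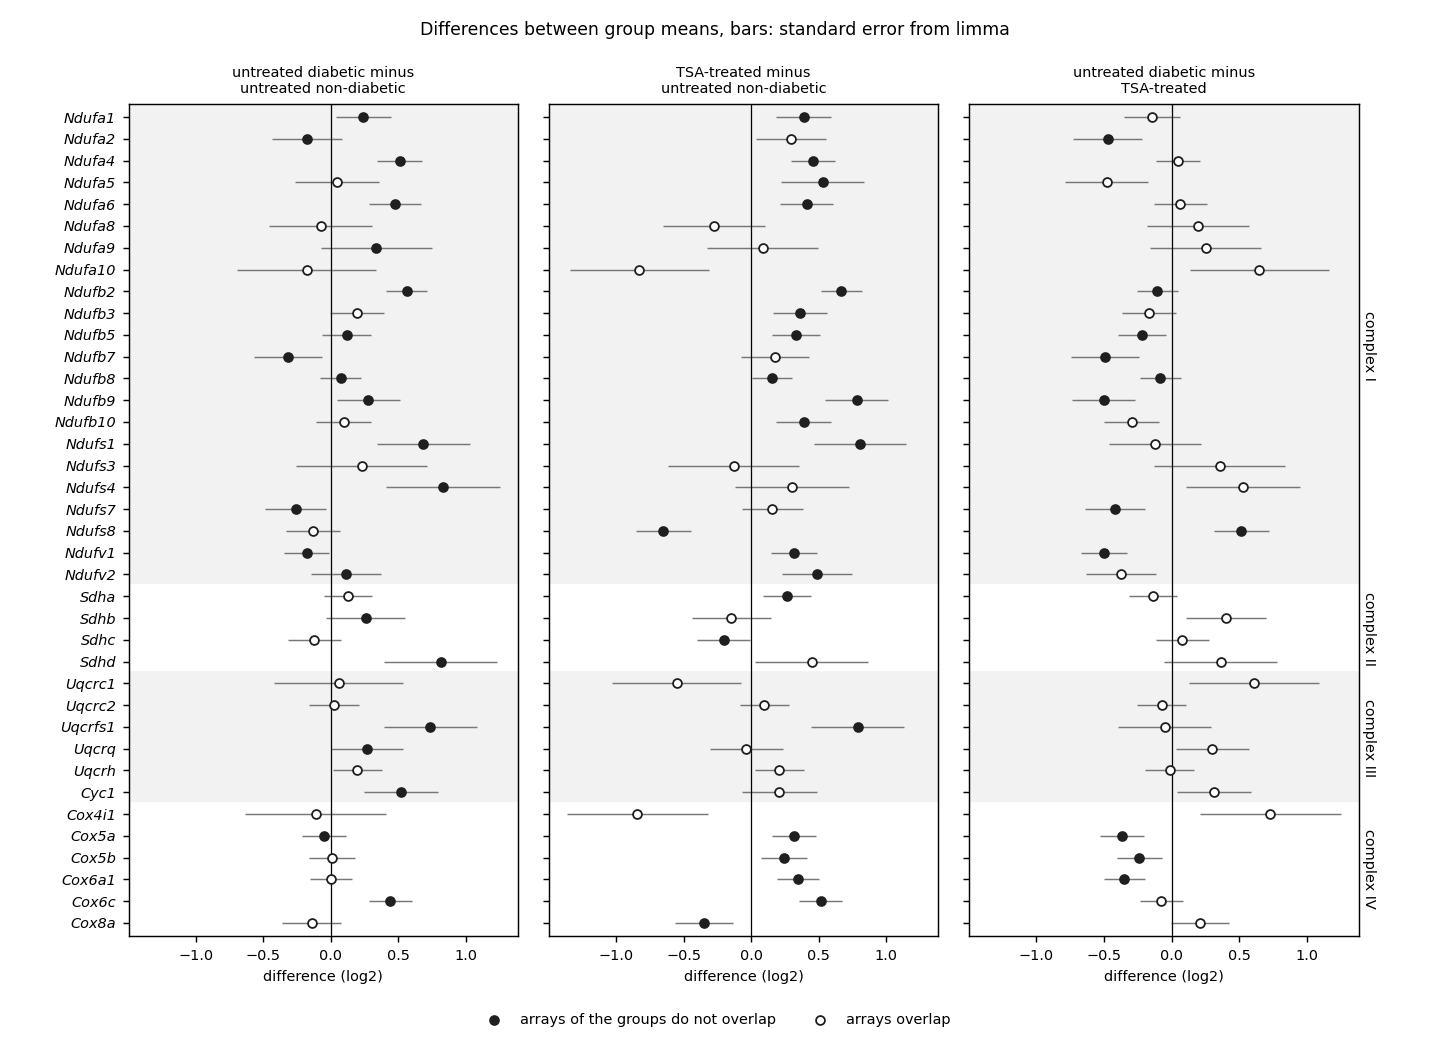
Difference between group means (log2, points) with the limma standard error (bars) for the 38 genes in the 3 comparisons. Filled points are genes whose arrays did not overlap between the groups, 22 of 38 for diabetic against non-diabetic, 22 of 38 for TSA-treated against non-diabetic and 12 of 38 for diabetic against TSA-treated, and no gene reached a limma adjusted p under 0.05. In the left panel 26 genes lie to the right of 0, and 18 do after quantile normalization of the deposited values again.

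The spread between the labelings of a pool was as wide as many differences between groups. The median gap between duplicates over the 38 genes was 0.13 in the non-diabetic, 0.23 in the diabetic and 0.48 in the TSA-treated pool (0.13, 0.25 and 0.31 over all genes). The TSA-treated duplicates lay over 0.5 apart in 19 of the 38 genes (50%, against 30.5% of all genes) and over 1 apart in 8 (21.1%, against 8.7%). In lists described below, the share over 0.5 apart was 58.3% for tricarboxylic acid cycle enzymes, 45% for assembly factors and 35.3% for the ATP synthase. It was 30% for the other chain subunits and 25% for regulators of mitochondrial biogenesis. The shares over 1 apart were 33.3%, 15%, 23.5%, 5% and 25% in that order. Over the 38 genes the TSA-treated duplicates did not shift as a block. The second array was higher in 20 genes and lower in 18, from −1.72 for Cox4i1 to 0.93 for Ndufa5. In Ndufa10, Ndufs3, Uqcrc1 and Cox4i1 it was lower by over 1.4, and in Ndufa5, Ndufv2, Ndufa2 and Ndufb7 it was higher by over 0.6. Without the second TSA-treated array, 31 of 38 genes were higher in TSA-treated than in non-diabetic mice (81.6%, against 53.3% of all genes) and 6 of 38 had a higher mean in the diabetic than in the TSA-treated group (15.8%, against 50.4%), in place of 28 and 16 with both arrays. Without the first TSA-treated array the counts were 24 (63.2%, against 60.1%) and 18 (47.4%, against 44.8%), and limma called 3 and 1 of the 38 genes in those comparisons (5.91% and 2.97% of all genes), but none without the second.

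**Figure D3:**
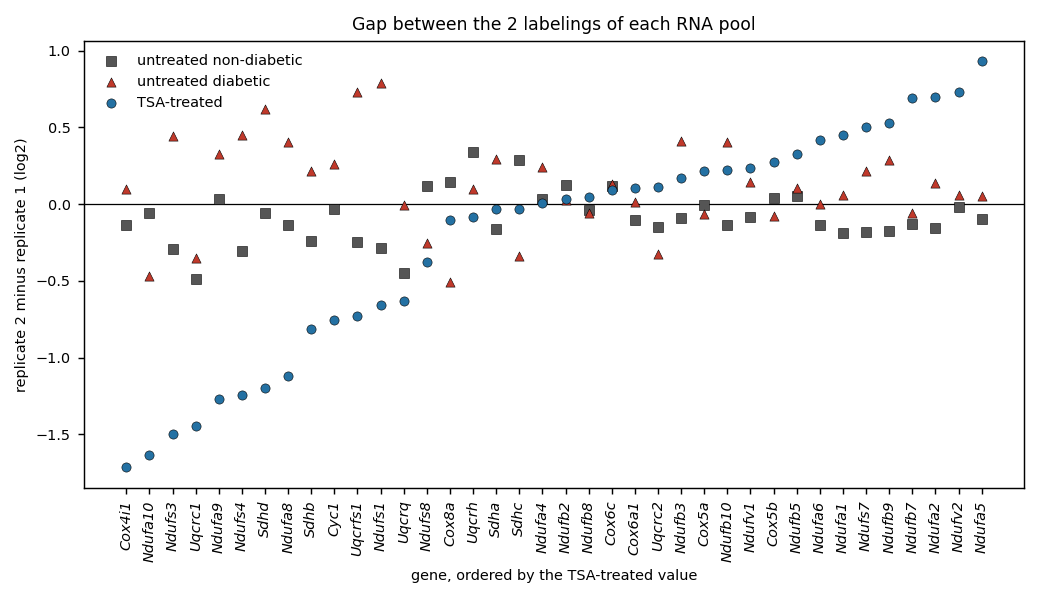
Replicate 2 minus replicate 1 (log2, vertical axis) for each of the 38 genes in the non-diabetic (squares), diabetic (triangles) and TSA-treated pool (circles), ordered by the TSA-treated value. The TSA-treated gaps run from −1.72 for Cox4i1 to 0.93 for Ndufa5, and no gap of the other pools exceeded 0.79 in size.

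The second diabetic and the first TSA-treated array resembled each other more than either resembled its own duplicate. Over the 38 genes their median gap was 0.10, the smallest of the 15 pairs of arrays, and Pearson's r across genes was 0.993, where genes are not independent replicates and all share their arrays. The corresponding r was 0.972 between the diabetic duplicates and 0.909 between the TSA-treated duplicates. In 11 of the 38 genes (28.9%, against 17.3% of all genes) these 2 arrays were both above the other 4, namely in Ndufa8, Ndufa9, Ndufs1, Ndufs3, Ndufs4, Sdha, Sdhb, Sdhd, Uqcrfs1, Uqcrh and Cyc1. The 3′ to 5′ difference of beta-actin was also alike on these arrays, at 3.32 and 3.45, whereas that of Gapdh was 3.19 and 3.85. The part of RNA quality in the resemblance was not tested.

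Probe sets of the same gene did not always move together. The 38 genes had 81 probe sets of their own, 23 genes having several, and the signs of the group difference disagreed among a gene's probe sets in 12 of the 23 between diabetic and non-diabetic mice, 10 between TSA-treated and non-diabetic mice and 16 between diabetic and TSA-treated mice. None of the 81 was called by limma in any comparison, with lowest adjusted p-values of 0.735, 0.138 and 0.902. For Ndufs8, all 6 probe sets were lower in TSA-treated than in non-diabetic mice, from −1.38 to −0.08. Some of them were far lower on the second TSA-treated array than on the first, by gaps of −2.64, −2.20 and −1.70. The gaps of its other probe sets were −0.46, −0.38 and 0.26. For Cox6c the dimmer probe set gave 0.42 and 0.86 where the brightest gave 0.44 and 0.52. Ndufb2 had a second probe set with differences of 0.58 and 0.87, and a dimmer one with −0.27 and −0.23. The sign also turned in diabetic minus TSA-treated mice among the probe sets of Ndufb9 (−0.50 to 0.16) and Ndufb7 (−0.49 to 0.17), and in TSA-treated against non-diabetic mice between those of Ndufa10 (−0.83 and 0.27). Sdha ran from −1.46 to 0.29 in TSA-treated against non-diabetic mice, its lowest value being that of a probe set with levels of 4.76 and 4.85 on the non-diabetic and 3.28 and 3.40 on the TSA-treated arrays.

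Within the TSA-treated pool the disagreement reached opposite directions on the same pair of arrays. Ndufv2, the iron-sulfur partner of Ndufv1, was 0.73 and 0.93 higher on the second TSA-treated array by 2 of its probe sets and stood at −2.43 by its remaining one, which read 10.22 and 7.79. Sdhd was lower by 1.20 in its brightest probe set and 1.15 higher in the other. Sdhc was lower by 0.03 in its brightest probe set and by 2.50 in the other, which read 7.13 and 4.64. Probe sets of a gene lay over 1 apart in this gap in 13 of the 23 genes (56.5%, against 28.8% of the 9010 genes with several probe sets). In the diabetic pool this held in 1 of the 23 (4.35%, against 19.8%), and in the non-diabetic pool in 0 (against 3.87%). Where along each transcript these probe sets lie was not analysed here. Of the brightest probe sets, 4 carry the suffix _s_at and 6 the suffix _x_at, which Affymetrix gives to probe sets that can also bind other transcripts, and the levels of those 10 genes are uncertain for that reason, Ndufb2 and Ndufs8 among them.

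**Figure D4:**
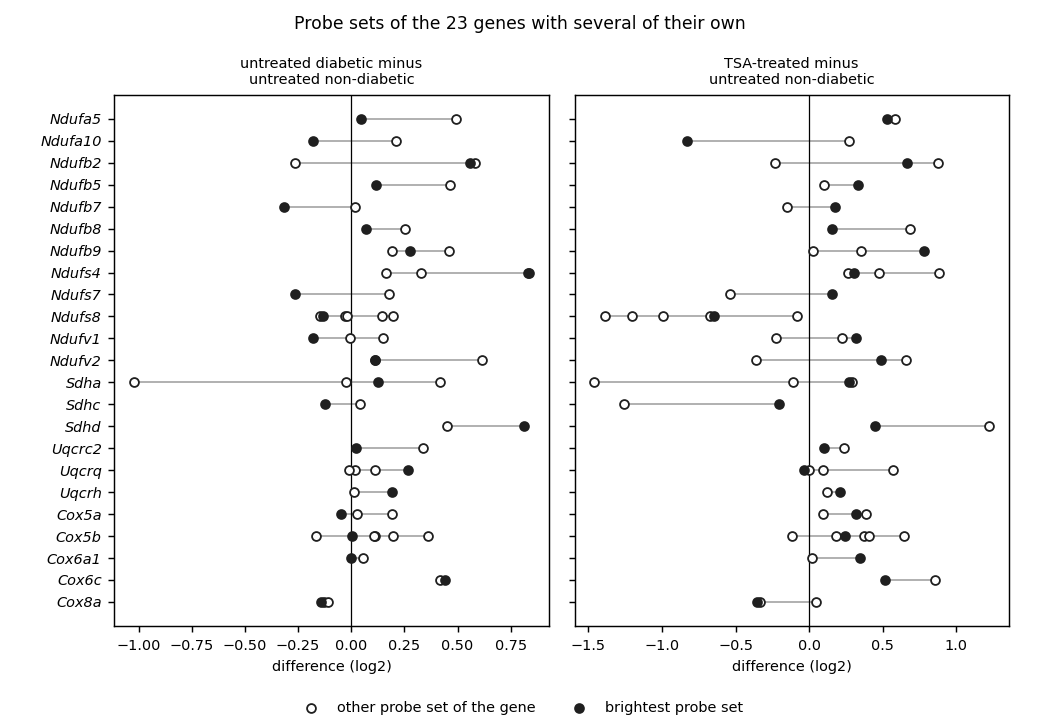
Group differences (log2) of every probe set of the 23 genes that have several, for diabetic against non-diabetic (left) and TSA-treated against non-diabetic mice (right), with the brightest probe set filled. Lines join the probe sets of a gene, and the signs disagree within a gene for 12 of the 23 on the left and 10 on the right.

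The rest of the pathway was read from lists of genes, and limma called none of their genes in any comparison. They were chosen, like the subunit genes, with earlier results of these arrays known, so their counts and medians are descriptions. The other subunits of complexes I, III and IV with cytochrome c (20 of 23 genes measured) had medians of 0.14 in diabetic (−0.00 after quantile normalization again) and 0.24 in TSA-treated against non-diabetic mice. Cycs, cytochrome c itself, had their highest differences, 0.54 and 0.77, from 10.77 and 10.79 on the non-diabetic, 11.34 and 11.29 on the diabetic and 11.43 and 11.68 on the TSA-treated arrays (limma adjusted p = 0.758 and 0.152). Ndufa3, a complex I subunit, had their lowest, −0.18 and −0.67, from 10.62 and 10.66, 10.60 and 10.33, and 10.33 and 9.61. At an unadjusted limma p under 0.05, 2 of the 20 were higher in diabetic than in non-diabetic mice (4.33% of all genes), and 4 were higher and 1 lower in TSA-treated than in non-diabetic mice (8.8% and 7.19% of all genes).

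The ATP synthase, which works behind the chain, had 17 of 17 listed genes measured, and 15 of the 17 had a higher mean in diabetic than in non-diabetic mice (57.2% of all genes did), with a median of 0.26. After quantile normalization again 14 of the 17 were higher and the median was 0.13. The median was 0.30 in TSA-treated against non-diabetic mice and −0.12 in diabetic minus TSA-treated mice. Usmg5, a small membrane subunit of the synthase, had the highest differences from non-diabetic mice, 0.70 and 0.99, with 8.41 and 8.42 on the non-diabetic, 9.001 and 9.233 on the diabetic and 9.16 and 9.65 on the TSA-treated arrays (limma adjusted p = 0.757 and 0.155). Atpif1, which inhibits the synthase when it runs backwards, measured 10.57 and 10.70, 10.98 and 11.31, and 11.66 and 11.45, with 0.51 and 0.92. For both genes the non-diabetic arrays lay below all others. Atp5g2, a ring subunit, had the lowest difference between TSA-treated and non-diabetic mice, −2.07 ± 1.03, with 9.73 and 9.82 on the non-diabetic, 9.83 and 9.36 on the diabetic and 9.44 and 5.96 on the TSA-treated arrays, so that it rested on 1 array (limma adjusted p = 0.430). Atp5d, with the lowest difference between diabetic and non-diabetic mice, stood at −0.29 and −0.40.

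Enzymes of the tricarboxylic acid cycle other than complex II, which supply the chain with NADH, had medians of 0.19 in diabetic and 0.38 in TSA-treated against non-diabetic mice over 12 of 13 listed genes. Dld, the lipoamide dehydrogenase shared by the oxo acid dehydrogenases, measured 6.26 and 5.75 on the non-diabetic, 6.63 and 7.81 on the diabetic and 7.81 and 6.69 on the TSA-treated arrays, with differences of 1.22 and 1.25 (limma adjusted p = 0.797 and 0.345). Here too the second diabetic and the first TSA-treated array stood at the top. Ogdh, of the oxoglutarate dehydrogenase, measured 6.55 and 6.70, 6.33 and 6.30, and 6.37 and 4.10, and its difference of −1.39 in TSA-treated mice came from the last array. Mdh2, the mitochondrial malate dehydrogenase, lay between 10.79 and 10.96 on 5 arrays and at 11.82 on the second TSA-treated one.

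Assembly factors, which help to build the complexes without staying in them, had medians of 0.24 in diabetic and 0.08 in TSA-treated against non-diabetic mice and 0.11 in diabetic minus TSA-treated mice over 40 of 42 listed genes. After quantile normalization again these medians were 0.23, 0.15 and 0.03. In the deposited values 29 of the 40 were higher in diabetic than in non-diabetic mice (72.5%, against 57.2% of all genes). Cox11, which delivers copper to complex IV, had the highest difference between TSA-treated and non-diabetic mice, 1.14, and 0.63 in diabetic mice, with 6.74 and 6.64 on the non-diabetic, 7.17 and 7.46 on the diabetic and 7.78 and 7.88 on the TSA-treated arrays. The groups did not overlap, and the limma adjusted p was 0.105 and 0.735. Ndufaf1, a complex I factor, measured 6.11 and 6.06, 6.49 and 7.39, and 7.38 and 6.55, with the highest difference of the list between diabetic and non-diabetic mice, 0.85. Sdhaf1, a complex II factor, had the lowest, −0.40, and Ecsit, another complex I factor, had the lowest between TSA-treated and non-diabetic mice, −0.66. In diabetic minus TSA-treated mice the list ran from −0.55 for Timmdc1 to 1.10 for Cox19.

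Regulators of mitochondrial biogenesis, 12 of 12 measured, had medians of −0.04, −0.06 and −0.03 in the same 3 comparisons, of which the first turned to 0.02 with median centring and the second to 0.02 after quantile normalization again. Ppargc1b, a coactivator of nuclear genes for mitochondrial proteins, measured 6.66 and 6.56 on the non-diabetic, 5.73 and 5.46 on the diabetic and 5.53 and 5.62 on the TSA-treated arrays. The non-diabetic arrays lay above all others, with differences of −1.01 and −1.03 (limma adjusted p = 0.538 and 0.117). Tfb1m, the methyltransferase of mitochondrial ribosomal RNA, measured 6.66 and 6.66, 6.97 and 7.49, and 7.53 and 7.74, with 0.57 and 0.97 (limma adjusted p = 0.794 and 0.162). Tfb2m, a transcription factor of the mitochondrial polymerase, measured 7.60 and 7.72, 7.47 and 6.38, and 6.59 and 5.32, with −0.73 and −1.70 (limma adjusted p = 0.912 and 0.227). These 3 genes therefore held the widest differences of a list whose median was near 0.

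Of the 13 subunits coded by the mitochondrial genome only mt-Nd5 had a probe set of its own. It measured 10.20 and 10.52 on the non-diabetic, 10.52 and 10.98 on the diabetic and 10.48 and 10.14 on the TSA-treated arrays, with 0.39 in diabetic and −0.05 in TSA-treated against non-diabetic mice (limma adjusted p = 0.884 and 0.949). The 9 subunit isoforms known from heart, muscle, lung or testis, all measured, had medians of −0.03, which turned to 0.03 with median centring and 0.01 after quantile normalization again, and 0.10. Their extremes were small, from −0.25 for Cox6a2 to 0.18 for Cox6b2 in diabetic and from −0.49 for Ndufa4l2 to 0.30 for Cox4i2 in TSA-treated against non-diabetic mice.

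**Figure D5:**
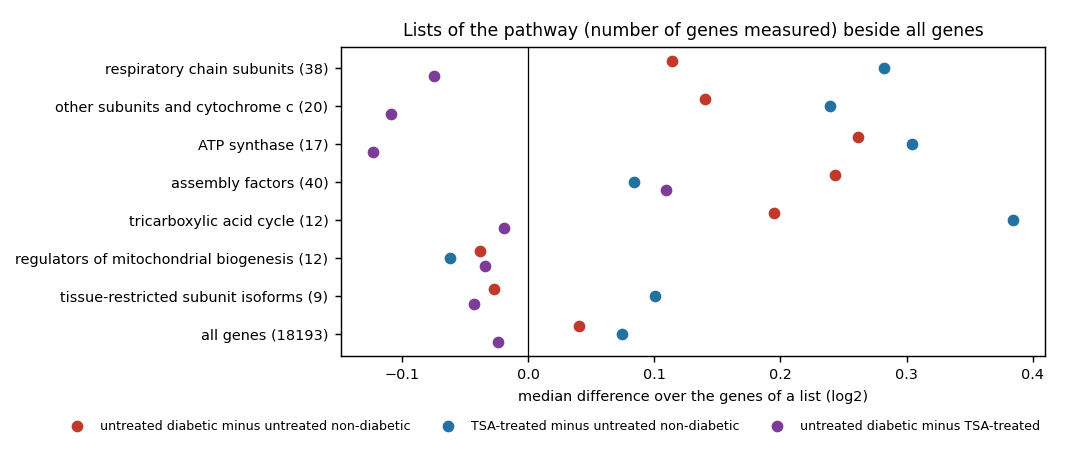
Median difference over the genes of each list (log2, horizontal axis) for diabetic against non-diabetic (red), TSA-treated against non-diabetic (blue) and diabetic minus TSA-treated mice (purple), with the number of genes measured beside each list and all 18193 genes in the bottom row. The medians of the 38 subunit genes are 0.11, 0.28 and −0.07, against 0.04, 0.07 and −0.02 over all genes, and the first of them is −0.00 after quantile normalization of the deposited values again.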

How the data were processed

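Spleen RNA pools of 3 groups of female NOD mice had been measured on 6 arrays, 2 per group. The authors used S+Array Analyzer for quantile normalization and for a Robust Multi-array Average (RMA) summary of each probe set, and deposited the values on the log2 scale, so that a difference of 1 is a 2-fold difference in signal. RMA compresses differences near background, which understates changes of dim probe sets. The number of arrays limits the precision, and no depth applies. Groups and replicate numbers were taken from the sample titles.

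The deposited log2 values of all 45037 probe sets that are not Affymetrix controls were fitted without a filter, with 1 mean per group and all 6 arrays (R 4.3.3, limma 3.58.1, lmFit and eBayes, 3 residual and 2.94 prior degrees of freedom), with Benjamini-Hochberg adjustment over all of them and a threshold of 0.05. Of these probe sets, 34945 name 1 gene in the platform annotation used, 932 several and 9160 none, and symbols were updated through the RefSeq gene table. A gene was represented by its brightest probe set annotated to it alone. The subunit genes and the lists were chosen with earlier results of these data known. Values are given for genes called in any comparison, the highest and lowest difference of each complex in each comparison, and the core subunits Ndufs1, Ndufv1, Ndufs7, Sdha, Sdhb, Uqcrfs1, Cyc1, Cox4i1 and Cox5a. For the other lists the extremes are named against non-diabetic mice, and for assembly factors also in diabetic minus TSA-treated mice. In that last comparison the ATP synthase ran from −0.41 to 1.90 and tricarboxylic acid cycle enzymes from −0.51 to 1.08. Regulators ran from −0.40 to 0.97, the other chain subunits from −0.51 to 0.49 and the isoforms from −0.36 to 0.27. Genes named for a gap between duplicates or between their probe sets, and Ndufb2, Ndufa4, Cox6c, Ndufb9, Ndufs8 and Cox6a1 where these rules do not name them, were chosen after their values were seen. The fit was tested on simulated data.

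Median differences of the marker lists follow, in the order diabetic minus non-diabetic, TSA-treated minus non-diabetic and diabetic minus TSA-treated mice. They were −0.21, −0.80 and 0.60 for T cells and −0.26, −1.25 and 1.19 for B cells. Macrophage and monocyte markers had 0.20, 0.03 and 0.23, and neutrophil markers 0.55, −0.55 and 1.10. Dividing-cell markers had 0.71, 0.79 and −0.25, and pancreatic acinar markers 6.39, 3.66 and 2.44. Adipocyte markers had −0.43, −0.93 and 0.49, and smooth and striated muscle −0.35, −0.40 and 0.07. The erythroid list had 0.18, 0.47 and −0.13. Its medians against non-diabetic mice are the values of Hba-a1 alone, whose probe set read only 2.81 to 3.64. The other erythroid markers ran from −1.11 for Alas2 to 1.38 for Ermap in TSA-treated minus non-diabetic mice.

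Alternatives were the replicate number as a block, each array left out, the compared groups alone, quantile normalization again, median centring, a filter on dim probe sets, an intensity trend, the t-test of the methods and the mean of a gene's probe sets. The LPE test that the methods also name was not run. Array positions on a genome were not used, and promoter coordinates are those of RefSeq.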

Additional observations from a re-analysis of the deposited data

How the results depend on the processing

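No subunit gene was called in any comparison under the replicate block, with the compared groups alone, after quantile normalization again or median centring, above the median probe set, with an intensity trend, with the t-test of the methods or with the mean of a gene's probe sets. Leaving out each array in turn gave 0 calls between diabetic and non-diabetic mice, 0 to 3 between TSA-treated and non-diabetic mice, 0 to 1 between diabetic and TSA-treated mice and 0 to 1 over the 3 groups, and the highest counts came without TSA-treated replicate 1. There TSA-treated replicate 2 stands alone and is assumed to vary like the other groups: limma called Ndufa5 higher (0.99, adjusted p = 0.0481) and Ndufa10 (−1.65, adjusted p = 0.0404) and Cox4i1 (−1.70, adjusted p = 0.0227) lower than in non-diabetic mice, and Cox4i1 higher in the diabetic than in the TSA-treated group (1.59, adjusted p = 0.0309), while calls over all probe sets went from 31 to 2045 and from 12 to 1047. Without TSA-treated replicate 2 the counts were 0. The median difference ran from 0.05 to 0.21 for diabetic against non-diabetic, 0.23 to 0.39 for TSA-treated against non-diabetic and −0.11 to −0.00 for diabetic minus TSA-treated mice over the arrays left out.

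Quantile normalization again gave 11 genes with diabetic above non-diabetic arrays without overlap and 10 below (27.8% and 18.4% of all genes), in place of 17 and 5. With it 18 of 38 genes were higher in diabetic mice (47.4%, against 58.1% of all genes), with a median of −0.00. It also gave 3 genes with diabetic above TSA-treated arrays (13.3% of all genes) in place of 1. Median centring left 1 gene with diabetic below non-diabetic arrays (12.7% of all genes). The mean of a gene's probe sets left 3 such genes (18.5%). It also gave 2 genes above and 7 below in diabetic against TSA-treated arrays (13.5% and 15.5%). The cause was not tested. In single genes the sign changed in 32, 18 and 37 of 532 values per comparison, in 17, 14 and 25 of the 38 genes.

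The replicate block changed no call, with 0 subunit genes in each comparison and 33, 30 and 0 probe sets called in all, against 40, 31 and 12 without it. The gaps between duplicates were not positively correlated between groups over all probe sets. Pearson's r was −0.335 for non-diabetic and diabetic, −0.0363 for non-diabetic and TSA-treated and −0.105 for diabetic and TSA-treated arrays. With 1 gap per group, these values cannot show whether same-numbered arrays shared a processing step. Signal over background and duplicates of 1 pool per group limit all of these values, and nothing here covers the spread between mice.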
